A study of Mus musculus with 4 samples.

Results

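Glycosyltransferases build the sugar chains of glycoproteins, glycolipids and proteoglycans by adding 1 sugar at a time, and the 12 enzyme classes described here start, branch, extend and cap these chains. Members were the features whose symbol begins with *Galnt*, *B3gnt*, *B4galt*, *B3galt*, *B4galnt*, *St3gal*, *St6gal* (which takes in *St6galnac*), *St8sia*, *Fut*, *Gcnt* or *Mgat* and that lie outside a stretch of chromosome 6, whose tested genes run from 70844522 to 88207032, in which 97 of 102 tested features with a symbol were higher in the KO cells. This rule is written in names and positions, but the stretch it leaves out is one that was raised in KO in these same data. It found 86 of 19645 features, which carry 83 gene symbols. The shares of all tested features given below still include the 102 features of that stretch. RNA from undifferentiated mouse embryonic stem cells (ESCs) was profiled in 2 libraries from wild-type (WT) cells and 2 from *Bmal1* KO cells. The KO line is 1 ESC clone made with CRISPR-Cas9 against an exon of *Bmal1* (listed as *Arntl*), which encodes the circadian transcription factor BMAL1. Both genotypes were kept in serum with LIF, a cytokine that holds ESCs undifferentiated, on gelatin. The libraries of a genotype are called biological replicates, but no separate clones or cultures are named, so the p-values measure only the spread between these libraries. With 1 line a genotype, the deletion and other differences between the lines cannot be told apart.

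Values are FPKM, in which the fragments of a gene are divided by its length and by the mapped total, so levels can be compared between genes. The depth of the libraries is unknown, since read numbers cannot be recovered from FPKM. *Arntl* had 6.05 and 6.29 FPKM in WT and 5.95 and 5.92 in KO, so the deletion is not visible in the level of its RNA. The study described a short deletion and, by Western blot, loss of BMAL1 protein in the KO clone. The Y-linked gene *Ddx3y* had 0.235 and 0.403 FPKM in WT and 16.4 and 20.6 in KO, and the 102 features of the chromosome 6 stretch had a median log2 change of 0.88, so the lines also differ away from *Arntl*. Features without a symbol took 26.8% and 37.3% of the summed FPKM in WT and 19.0% and 18.1% in KO. None of 10 ESC markers was below 0.5 FPKM in either genotype, 1 rose (*Tfcp2l1*) and 3 fell (*Klf4*, *Utf1* and *Tdgf1*), and their sum ran from 6980 to 7163 FPKM in WT and from 6393 to 6827 in KO. Of 9 measured neural progenitor markers 2 rose (*Sox1* and *Pax6*), with a sum of 2.62 to 3.06 FPKM in WT and 10.9 to 11.6 in KO and *Fabp7* and *Neurog2* at 0 in WT. In the trophoblast list 3 of 9 measured genes rose (*Tfap2c*, *Tead4* and *Ascl2*), with a sum of 35.2 to 40.0 FPKM in WT and 43.9 in both KO libraries. Its most abundant gene, *Krt8*, was lower without overlap, with 23.1 and 20.6 FPKM in WT and 17.1 and 16.7 in KO (adjusted p = 0.0580 from limma). Below 0.5 FPKM, *Cdx2* was lower and *Gata3* higher in KO without overlap. Fibroblast markers (8 measured) summed to 8.40 to 9.66 FPKM in WT and 12.4 to 13.2 in KO with *Dcn* at 0 in WT, *Col3a1* at 0 in KO and 1 rise (*Fbln1*). Endoderm markers (10 measured) summed to 3.24 to 3.62 FPKM in WT and 4.73 to 5.02 in KO with *Afp* at 0 in KO and no gene past the test. Mesoderm markers (10 measured) summed to 3.25 to 3.79 FPKM in WT and 2.23 to 2.77 in KO with *Msgn1* at 0 in KO and 1 fall (*Eomes*). *Eomes* alone went from 2.21 and 2.25 FPKM in WT to 0.463 and 0.775 in KO. The other genes of this list had means under 0.5 FPKM. Among them *Mesp1*, *Kdr* and *T* were higher in KO without overlap, and the rest overlapped. Markers said to rise or fall had an adjusted p under 0.05, as had 12.5% of all tested features (6.85% higher and 5.60% lower in KO). The part of these markers in the results below was not tested.

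In mucin-type O-glycans the first sugar, N-acetylgalactosamine (GalNAc), is put on serine or threonine by GALNT enzymes. In N-glycans, MGAT enzymes set the number of branches on a preformed core. Both kinds of chain are then lengthened with galactose and N-acetylglucosamine (GlcNAc) and ended with sialic acid, fucose or GalNAc. Mouse ESCs are known for the Lewis X epitope, also called SSEA-1, a fucosylated chain end by which they are recognised.

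Of the tested glycosyltransferases, 2 differed between the genotypes past the threshold. *St3gal3*, which puts sialic acid on galactose at the ends of chains, rose, and *B4galnt3*, which caps GlcNAc with GalNAc, fell. Of the 86 features, 54 had a mean of at least 0.5 FPKM and were tested with limma on log2(FPKM + 0.1) together with all other features, and 32 were below that level. At an adjusted p under 0.05 (limma, Benjamini-Hochberg over 12990 features), 1 member was higher and 1 lower in KO, which is 3.70% of the tested members against 12.5% of all tested features (6.85% higher and 5.60% lower). With the added requirement of more than a 2-fold change limma called 0 members, against 4.14% of all tested features (2.72% higher and 1.42% lower), and 12 members had an unadjusted p under 0.05 (8 higher and 4 lower), against 29.6% of all features. The genotypes did not overlap at 30 members, against 58.8% of all tested features. KO was above WT at 18 of these and below at 12, against 27.0% and 31.7% of all features, and the groups overlapped at the other 24. The median log2 change of the members was 0.01, with a range from -1.10 to 1.12, and that of all tested features was -0.02. With a minimum mean of 1 FPKM the members' median was -0.02, so its sign depends on the filter. Without sign, the median size of the log2 change was 0.21 for the members and 0.19 for all tested features. The median level was 4.44 FPKM for the members and 9.02 FPKM for all tested features. For 46 of the 54 members the 95% confidence interval of the log2 change lay within a 2-fold change in either direction. For 1 gene with 2 libraries a genotype, the smallest p of an exact permutation test (two-sided) is 0.333, so the limma test rests on the variance shared across features.

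**Figure D1:**
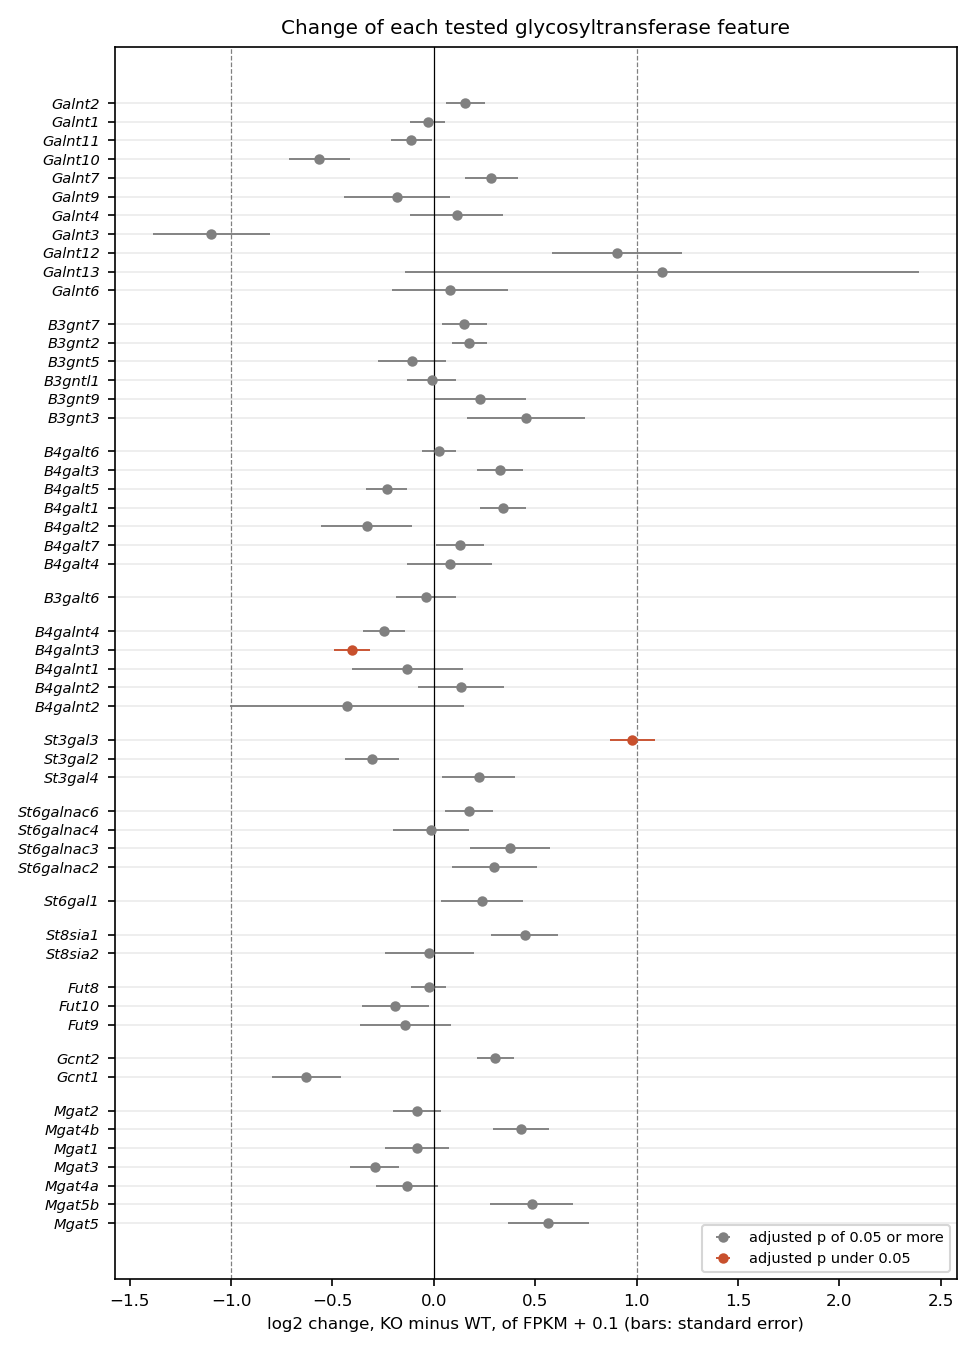
The log2 change of KO minus WT (of FPKM + 0.1) of each tested member is plotted in rows by enzyme class, with bars for the standard error and dashed lines at a 2-fold change, and the 2 rows that are merged with another gene are left out. *St3gal3* (0.98) and *B4galnt3* (-0.40) are the members with an adjusted p under 0.05, and *Galnt13* has the widest bar.

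The promoters of both genes that passed the test are shown because BMAL1 binds E-boxes, whose preferred form is CACGTG, together with that of *B3gnt7*, the most abundant member, which holds this form. Each run covers 250 bases before to 50 bases after the annotated gene start (RefSeq, GRCm38.p6), is written from 5′ to 3′ on the strand of the gene, and has in capitals every match to CANNTG, the general form of the E-box that includes CACGTG.
St3gal3: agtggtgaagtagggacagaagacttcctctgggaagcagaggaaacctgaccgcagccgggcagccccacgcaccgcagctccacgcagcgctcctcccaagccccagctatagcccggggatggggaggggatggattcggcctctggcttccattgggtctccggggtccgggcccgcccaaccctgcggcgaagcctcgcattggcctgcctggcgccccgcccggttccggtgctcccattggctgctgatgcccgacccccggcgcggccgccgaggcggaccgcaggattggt
B4galnt3: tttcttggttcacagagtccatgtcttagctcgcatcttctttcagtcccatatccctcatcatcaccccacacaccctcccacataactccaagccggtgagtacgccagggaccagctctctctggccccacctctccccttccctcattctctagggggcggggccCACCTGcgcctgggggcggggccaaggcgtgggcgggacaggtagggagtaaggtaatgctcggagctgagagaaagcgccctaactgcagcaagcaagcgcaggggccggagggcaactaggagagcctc
B3gnt7: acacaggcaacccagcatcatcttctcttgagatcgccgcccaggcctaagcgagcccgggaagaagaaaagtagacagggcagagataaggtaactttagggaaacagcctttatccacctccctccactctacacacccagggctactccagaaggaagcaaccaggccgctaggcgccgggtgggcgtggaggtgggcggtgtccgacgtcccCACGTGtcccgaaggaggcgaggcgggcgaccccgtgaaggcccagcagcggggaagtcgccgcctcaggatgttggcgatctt
The window of *St3gal3* lies at chr4:118134897-118135196 on the minus strand, that of *B4galnt3* at chr6:120294848-120295147 on the minus strand and that of *B3gnt7* at chr1:86302971-86303270 on the plus strand. No CANNTG was found in the 300 bases of *St3gal3*. The window of *B4galnt3* held CACCTG at bases 170 to 175, and that of *B3gnt7* held CACGTG at bases 217 to 222, counted from 1 at the left end. The searched forms CANNTG and CACGTG read the same on both strands, CACGTG is a case of CANNTG, and 72.3% of 32851 windows of this length held CANNTG and 7.15% held CACGTG. Of the 83 member genes 61 had a window, and 6 of their 87 windows held CACGTG, those of *B3gnt7*, *B3galt2*, *St6galnac3*, *Galnt9*, *B3gntl1* and *B3galt5*. None of these 6 genes passed the test, and *B3galt2* and *B3galt5* were below the FPKM minimum. These matches describe the letters of the windows and say nothing of binding.

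*St3gal3* (ENSMUSG00000028538.12, chromosome 4 from 117932153 to 118134946, minus strand) encodes a transferase that caps galactose next to GlcNAc on glycoproteins and glycolipids. It had 6.62 and 6.73 FPKM in WT and 14.3 and 12.3 FPKM in KO. The WT libraries lay close to each other and both KO libraries lay far above them. The log2 change was 0.98 (95% interval 0.71 to 1.25, standard error 0.11, adjusted p = 0.00725), a 1.97-fold rise, just short of the 2-fold limit. Within 300 kb of the gene 14 other features were tested, and 0 of these had an adjusted p under 0.05. Their log2 changes ran from -0.36 to 0.58. The sums of the neural, trophoblast, fibroblast and endoderm markers given above were also higher in KO without overlap, and their part in this rise was not tested. In libraries of whole cultures, more cells that express a gene and more of its RNA per cell cannot be told apart.

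The other tested members of the alpha-2,3-sialyltransferase class, *St3gal2* and *St3gal4*, did not pass the test and are given here after their values were seen. *St3gal2*, which acts mainly on galactose next to GalNAc in O-glycans and gangliosides, had 7.33 and 6.66 FPKM in WT and 6.21 and 5.12 in KO. Its KO libraries lay below its WT libraries, with a log2 change of -0.30 (standard error 0.13, adjusted p = 0.195). *St3gal4*, which caps type 2 chains (galactose on GlcNAc) of glycoproteins, had 5.32 and 3.83 FPKM in WT and 5.58 and 4.99 in KO, and its groups overlapped. As a share of the summed FPKM of the class, *St3gal3* made up 34.2% and 38.9% in WT and 54.3% and 54.7% in KO. *St3gal2* made up 37.9% and 38.4% in WT and 23.6% and 22.8% in KO. In WT the shares of *St3gal2* and *St3gal3* were thus about equal, and in KO *St3gal3* was the larger in both libraries. The class summed to 18.3 ± 1.42 FPKM (WT) and 24.4 ± 2.78 FPKM (KO), without overlap (SD, n = 2). *St3gal1* and *St3gal6* were below the FPKM minimum. *St3gal5*, also of this class by name, lies in the chromosome 6 stretch and is left out of these sums and shares. It had 1.11 and 1.49 FPKM in WT and 2.21 and 2.66 in KO. These shares use the same libraries as the test and are given as a description.

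**Figure D2:**
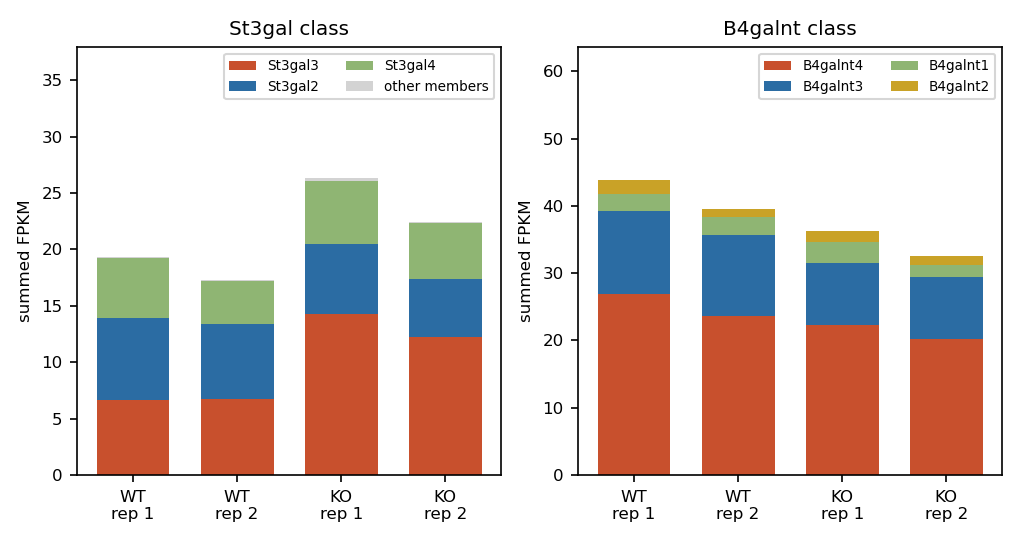
Stacked bars give the FPKM of the members of the *St3gal* class (left) and the *B4galnt* class (right) in each of the 4 libraries. *St3gal5*, which the rule leaves out, is not drawn. The *St3gal3* part rises from 6.62 and 6.73 FPKM in WT to 14.3 and 12.3 in KO, and the *B4galnt3* part falls from 12.3 and 12.0 to 9.14 and 9.19.

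*B4galnt3* (ENSMUSG00000041372.10, chromosome 6 from 120200781 to 120295384, minus strand) encodes an enzyme that adds GalNAc to GlcNAc and so makes the LacdiNAc chain end. It had 12.3 and 12.0 FPKM in WT and 9.14 and 9.19 FPKM in KO. The replicates of each genotype lay close together, and the groups did not overlap. The log2 change was -0.40 (standard error 0.09, 95% interval -0.62 to -0.19, adjusted p = 0.0399 from limma). Its call was lost with no filter on low values (adjusted p = 0.0649), without a trend in the variance model (0.0687) and without any 1 of the 4 libraries (0.0840 to 0.129). Within 300 kb, 0 of 6 other tested features had an adjusted p under 0.05. The annotated gene *D330020A13Rik* overlaps the start of *B4galnt3* on the opposite strand, and the strand of the reads is not stated, so a share of reads from it cannot be told apart.

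*B4galnt4*, which makes the same chain end, was the most abundant of the class, with 26.9 and 23.7 FPKM in WT and 22.4 and 20.3 in KO. Its KO libraries were also below its WT libraries, but its log2 change of -0.25 (standard error 0.10) did not pass the test (adjusted p = 0.177). The class summed to 41.7 ± 2.99 FPKM (WT) and 34.4 ± 2.64 FPKM (KO, SD, n = 2). Of its 5 tested features 4 had a negative log2 change, with a median of -0.25, against 6909 of all 12990 tested features. *B4galnt1*, which makes the gangliosides GM2 and GD2 and was named after its values were seen, had 2.48 and 2.74 FPKM in WT and 3.16 and 1.77 in KO. *B4galnt2*, which makes the Sda antigen, has 2 features at the same coordinates. These had 1.18 and 0.323 FPKM in WT and 0.588 and 0.334 in KO for the first, and 0.871 and 0.883 against 0.991 and 0.954 for the second. The split of reads between the *B4galnt2* features is uncertain.

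Over all sialyltransferases under the rule, which leaves out *St3gal5*, 10 of 20 features were tested. Of these 10, 7 had a positive log2 change, with a median of 0.23, but only *St3gal3* passed the test. Among all tested features 6081 of 12990 had a positive log2 change. *St8sia1*, the GD3 synthase that adds sialic acid to sialic acid on gangliosides, had 2.195 and 1.99 FPKM in WT and 2.61 and 3.20 in KO, a log2 change of 0.45 (standard error 0.17, adjusted p = 0.140). Its feature reaches beyond the annotated gene and has the coordinates of *Gm7457*. *St8sia2*, which builds polysialic acid on the neural cell adhesion molecule, had 1.75 and 1.74 FPKM in WT and 1.41 and 2.08 in KO, so its WT values lay between those of KO. A further *St8sia2* feature at the same coordinates was below the FPKM minimum. *St6gal1*, which adds 2,6-linked sialic acid to N-glycans, had 1.64 and 1.23 FPKM in WT and 1.75 and 1.64 in KO. *St6galnac6*, the most abundant of the enzymes that put sialic acid on GalNAc, had 7.76 and 6.83 FPKM in WT and 8.73 and 7.74 in KO, with overlapping groups. *St6galnac3* had 0.987 and 1.03 FPKM in WT and 1.25 and 1.42 in KO at the feature that was tested (log2 change 0.38, adjusted p = 0.267). Its other feature at the same coordinates, below the minimum, had 0.465 and 0.485 FPKM in WT and 0.243 and 0.255 in KO. Both features separate the genotypes, but in opposite directions, and the split of reads between them is uncertain. Together they made up 12.4% and 13.8% of the summed FPKM of the *St6galnac* class in WT and 11.2% and 14.0% in KO. The tested feature is among the 7 positive ones counted above.

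Among the 16 GALNT features 11 were tested and 0 passed the test. *Galnt2* (22.5 and 20.3 FPKM in WT, 25.0 and 22.7 in KO), *Galnt1* (14.9 and 15.8 in WT, 14.9 and 15.2 in KO) and *Galnt11* (12.5 and 13.9 in WT, 12.7 and 11.7 in KO) were the most abundant, of which *Galnt1* and *Galnt11* were named after their values were seen. Together these ubiquitous starters of O-glycans made up most of the class sum, 65.2 ± 1.87 FPKM (WT) and 65.3 ± 2.83 FPKM (KO; SD, n = 2). The widest differences were at genes with little RNA. *Galnt13* had the largest fitted change of the class (1.12, standard error 1.27, adjusted p = 0.599), but it was listed at 0 and 0.619 FPKM in WT and at 1.57 and 0.105 in KO, so each genotype held a high and a low library. Without WT replicate 2 its log2 change was 2.55 (adjusted p = 0.00429 from limma). *Galnt3*, named here after its values were seen, had 0.827 and 0.940 FPKM in WT and 0.416 and 0.308 in KO (log2 change -1.10, standard error 0.29, adjusted p = 0.0641). *Galnt10*, also chosen after its values were seen, had 5.99 and 7.60 FPKM in WT and 4.81 and 4.26 in KO (log2 change -0.56, standard error 0.15, adjusted p = 0.0678). *Galnt12*, likewise chosen after its values were seen, was on the higher side, with 0.402 and 0.363 FPKM in WT and 0.636 and 1.01 in KO (log2 change 0.90, standard error 0.32, adjusted p = 0.129). The groups of these 3 genes did not overlap. Over the class KO lay above WT at 4 of the 11 tested members and below it at 2, and the groups overlapped at 5. The groups were thus apart at 54.5% of the class, against 58.8% of all tested features (27.0% above and 31.7% below).

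Branching enzymes of O-glycans and poly-LacNAc chains (*Gcnt*) held 2 tested members, with log2 changes of opposite sign, and 0 passed the test. *Gcnt2*, which makes the branched I antigen on poly-LacNAc, had 14.0 and 15.4 FPKM in WT and 18.4 and 18.1 in KO (log2 change 0.30, standard error 0.09, adjusted p = 0.0853). *Gcnt1*, the core 2 branching enzyme of O-glycans, had 1.96 and 2.21 FPKM in WT and 1.30 and 1.32 in KO (log2 change -0.63, standard error 0.17, adjusted p = 0.0690). The groups of each gene were separated, as they were at 58.8% of all tested features. *Gcnt3*, a core 2 and core 4 enzyme of mucins, was below the minimum with 0.239 and 0.277 FPKM in WT and 0.481 and 0.627 in KO, and *Gcnt4* and *Gcnt7* were lower still.

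N-glycan branching (*Mgat*) was represented by 10 features, of which 7 were tested and 0 passed. *Mgat2*, which starts the second antenna of complex N-glycans, was the most abundant with 20.7 and 22.9 FPKM in WT and 18.7 and 22.5 in KO, and its groups overlapped. *Mgat5*, which makes the 1,6-linked branch that carries poly-LacNAc, had 0.904 and 0.968 FPKM in WT and 1.34 and 1.53 in KO (log2 change 0.56, standard error 0.20, adjusted p = 0.129). *Mgat4b*, an enzyme of the 1,4-linked branch named after its values were seen, had 9.79 and 7.92 FPKM in WT and 12.8 and 11.1 in KO (log2 change 0.43, standard error 0.14, adjusted p = 0.106). *Mgat3*, whose bisecting GlcNAc blocks further branching and which was likewise chosen after its values were seen, had 5.47 and 5.56 FPKM in WT and 4.81 and 4.19 in KO (log2 change -0.29, standard error 0.12, adjusted p = 0.175). The groups of these 3 genes did not overlap. Of the 7 tested members KO lay above WT at 3 and below it at 2, and the groups overlapped at 2. The groups were thus apart at 71.4% of the class, against 58.8% of all tested features. The class summed to 49.1 ± 0.169 FPKM (WT) and 50.5 ± 0.782 FPKM (KO; SD, n = 2).

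Chain extension held the most abundant member. *B3gnt7*, which extends keratan sulfate and poly-LacNAc chains with GlcNAc and whose promoter carries the CACGTG shown above, had 46.7 and 39.3 FPKM in WT and 50.2 and 45.0 in KO, with overlapping groups (log2 change 0.15, standard error 0.11, 95% interval -0.12 to 0.42, adjusted p = 0.418). It made up 61.7% and 56.5% of the *B3gnt* sum in WT and 61.0% and 57.8% in KO. *B3gnt3*, an enzyme that extends core 1 O-glycans, had the largest change of the class, from 0.468 and 0.382 FPKM in WT to 0.653 and 0.581 in KO (log2 change 0.45, standard error 0.29, adjusted p = 0.354).

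All 7 *B4galt* genes, whose products add galactose to GlcNAc, glucose or xylose, were tested, and 0 passed. *B4galt6*, a lactosylceramide synthase, was the most abundant with 14.5 FPKM in both WT libraries and 14.4 and 15.2 in KO, and its 95% interval was -0.18 to 0.23. *B4galt1*, the main galactosyltransferase of N-glycans, had 7.96 and 7.16 FPKM in WT and 10.2 and 9.06 in KO (log2 change 0.34, standard error 0.11, adjusted p = 0.110). *B4galt5*, the other lactosylceramide synthase, chosen after its values were seen, had 13.5 and 12.2 FPKM in WT and 11.4 and 10.4 in KO (log2 change -0.23, standard error 0.10, adjusted p = 0.195). *B3galt6*, which adds a galactose of the linker that ties glycosaminoglycans to their protein, had 3.29 and 3.99 FPKM in WT and 3.36 and 3.68 in KO. The GM1 synthase gene *B3galt4* shares a row with the ribosomal protein gene *Rps18*, and the 4494 to 5186 FPKM of that row cannot be assigned to it.

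*Fut8*, which adds the core fucose of N-glycans, was the most abundant fucosyltransferase with a row of its own. It had 10.9 and 11.2 FPKM in WT and 10.8 FPKM in both KO libraries (log2 change -0.03, standard error 0.09, 95% interval -0.24 to 0.19, adjusted p = 0.872). *Fut9*, the enzyme that makes Lewis X and so SSEA-1, had 0.960 and 1.21 FPKM in WT and 0.918 and 1.02 in KO, with overlapping groups and an interval of -0.69 to 0.41; it was added to the named genes for its role in ESCs. *Fut10* had 2.36 and 1.98 FPKM in WT and 1.90 and 1.87 in KO (log2 change -0.19, standard error 0.16, adjusted p = 0.489). *Fut11* shares a row with *Sec24c* (35.0 to 39.1 FPKM), and the part of each gene in it is unknown. *Fut1*, *Fut2*, *Fut4*, *Fut7* and the pseudogene *Fut4-ps1* were below the minimum.

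**Figure D3:**
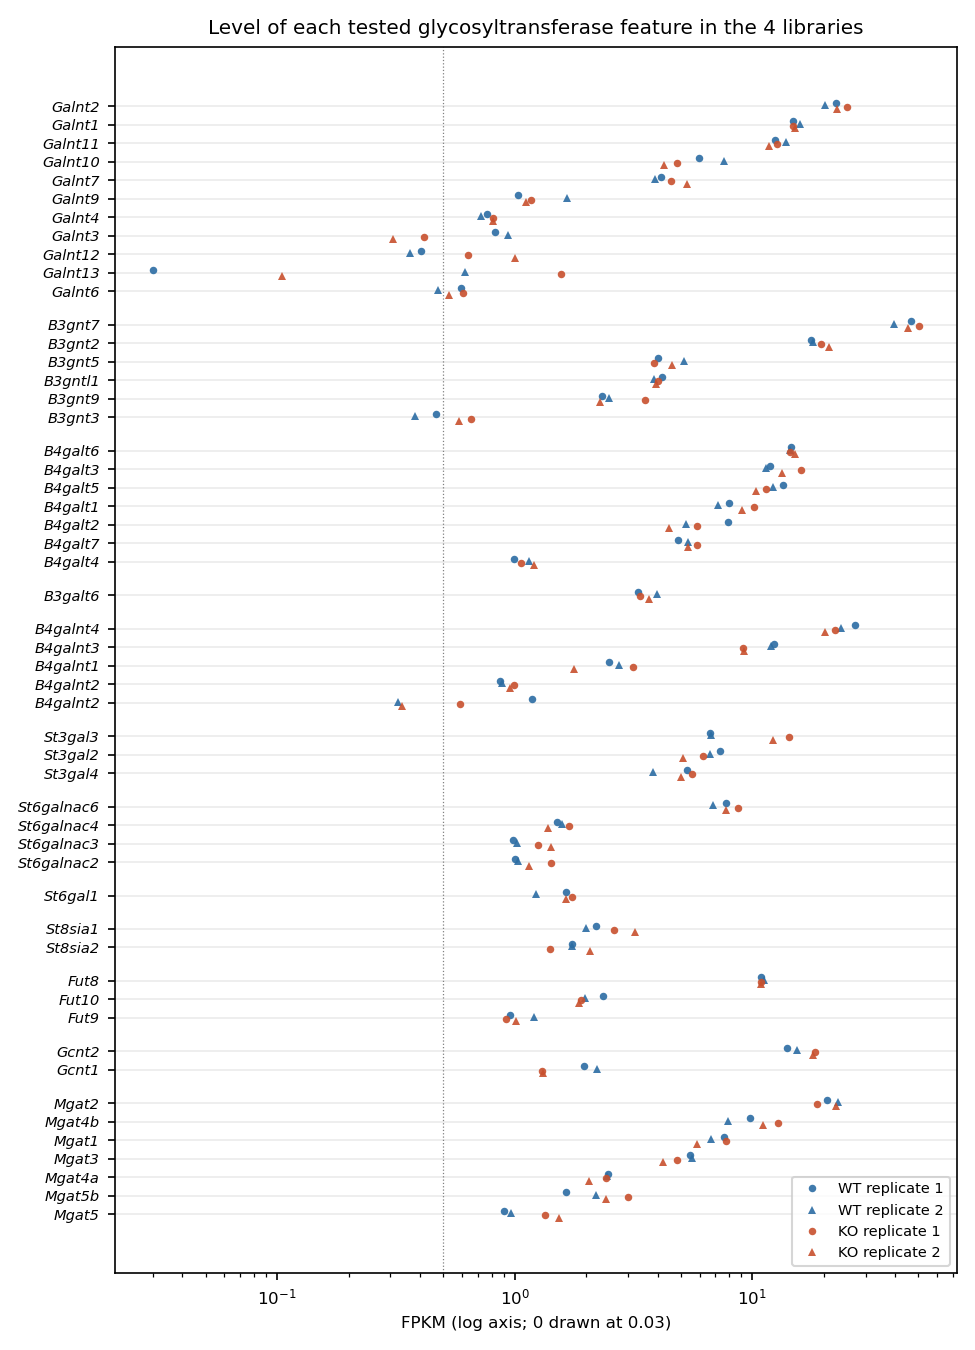
The FPKM of each tested member is plotted on a log axis in the 4 libraries, in rows by class and ordered by mean level within a class, without the 2 merged rows. The dotted line marks the minimum mean of 0.5 FPKM, *B3gnt7* lies farthest right at 39.3 to 50.2 FPKM, and for *St3gal3* and *B4galnt3* the KO symbols stand clear of the WT symbols.

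The 32 features below the minimum reached at most 0.627 FPKM in a library, and 15 of them stayed under 0.1 FPKM in each of the 4 libraries. Beside those named above they were *B3galt1*, *B3gnt4*, *B3gnt6*, *B3gnt8*, *Galnt14*, *Galnt16*, *Galnt18*, *Galntl5*, *Galntl6*, *Mgat4c*, *Mgat4d*, *Mgat4e*, *St6gal2*, *St6galnac5*, *St8sia3*, *St8sia4*, *St8sia5* and *St8sia6*. Several of them are known from nerve, gut mucosa or testis. Among the tested members 14 had a mean of at least 10 FPKM and 8 a mean under 1 FPKM, with the merged rows left out of the first count. In all, 13 tested members share their coordinates with another gene, among them *B4galt3*, *B4galnt1*, *St3gal4* and *St8sia1*, and *St3gal3* and *B4galnt3* are not among these 13.

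*St3gal5*, the GM3 synthase that opens ganglioside synthesis, lies on chromosome 6 from 72097592 to 72154570, in the stretch that the rule leaves out. It had 1.11 and 1.49 FPKM in WT and 2.21 and 2.66 in KO, and its log2 change of 0.87 (standard error 0.21) had an adjusted p = 0.0508. The median over the 102 tested features of that stretch was 0.88.

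Genes that supply, precede or undo the work of these enzymes were taken from 4 lists written by symbol. The lists were chosen with earlier results of these data known, so their shares are given as a description. Of 21 tested features of glycosidases, the enzymes that take glycans apart, mostly in lysosomes, 8 rose and 0 fell, which is 38.1% against the 12.5% of all tested features and the 3.70% of the glycosyltransferases. Their median log2 change was 0.33. *Hexa*, a subunit of beta-hexosaminidase, rose from 11.2 and 11.6 FPKM to 36.3 and 36.1 (log2 change 1.66, standard error 0.08, adjusted p = 0.00119). *Neu1*, the lysosomal sialidase that removes what the sialyltransferases add, rose from 2.96 and 2.87 FPKM to 6.05 and 5.87 (log2 change 1.01, standard error 0.11, adjusted p = 0.00725). *Aga*, which cuts the N-glycan from asparagine, rose by a log2 change of 1.23 (standard error 0.09, adjusted p = 0.00278). *Fuca2*, a fucosidase, and *Man2b1*, the lysosomal alpha-mannosidase, also rose, with log2 changes of 0.95 and 0.46. The log2 change was positive at 16 of the 21 features and negative at 5. KO lay above WT without overlap at 15 and below at 4, against 27.0% and 31.7% of all tested features. Among the 4 was the fucosidase *Fuca1*, with 19.2 and 17.4 FPKM in WT and 15.4 in both KO libraries. With no filter on low values 5 of these 21 features were past the threshold, against 4.84% of all features in that fit.

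Sugar donor synthesis and transport held 29 tested genes, of which 3 rose and 1 fell, with a median log2 change of 0.08. That is 13.8% past the threshold, near the 12.5% of all tested features. *Uap1l1*, a relative of the enzyme that makes UDP-GlcNAc, rose from 9.07 and 9.28 FPKM to 33.9 and 33.0 (log2 change 1.85, standard error 0.08, adjusted p = 0.00115). *Gfpt1*, which opens the hexosamine pathway, rose by a log2 change of 0.73, but it lies in the raised stretch of chromosome 6. *Fpgt*, of the fucose salvage route, rose by 0.67, and the nucleotide sugar transporter *Slc35d2* had a log2 change of -0.90. Among 33 tested genes of the N-glycan precursor, its transfer and its trimming, 2 rose and 1 fell (9.09%), with a median of -0.02. *Alg13*, a subunit of the enzyme that adds the second GlcNAc of the precursor, rose from 18.3 and 22.3 FPKM to 68.6 and 80.0 (log2 change 1.87, standard error 0.13, adjusted p = 0.00226). *Mogs*, which trims the first glucose, rose by 1.22 and also lies in the raised stretch. *Ostc*, of the oligosaccharyltransferase, had a log2 change of -0.38. Of 30 tested glycan transferases outside the rule, 1 rose and 1 fell (6.67%), with a median of 0.04. *Lfng*, which extends O-fucose on Notch, had 0.652 and 0.365 FPKM in WT and 1.36 and 1.59 in KO (log2 change 1.41, adjusted p = 0.0384), and *Ugcg*, which makes glucosylceramide, had 10.9 and 12.6 in WT and 7.56 and 8.40 in KO (log2 change -0.55, adjusted p = 0.0346).

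**Figure D4:**
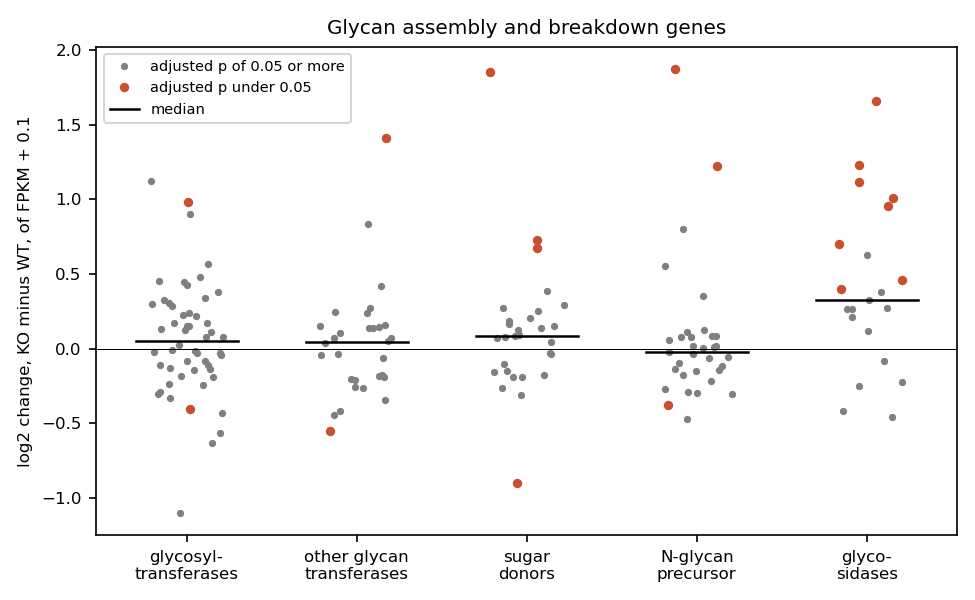
The log2 change (KO minus WT) of each tested gene is plotted for the glycosyltransferases, without the 2 merged rows, and the 4 lists, with black lines at the medians and genes with an adjusted p under 0.05 in orange. The glycosidases hold 8 such genes, all higher in KO, and the glycosyltransferases hold 2, in opposite directions.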

How the data were processed

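Per the labels, ribosomal RNA was depleted with Ribo-Zero from Trizol-extracted total RNA. The authors' alignment to the mouse genome GRCm38 used TopHat (2.1.1) on Bowtie2 (2.3.0), and the FPKM they deposited were estimated per gene by Cufflinks (2.2.1), and library totals of reads are not given in the sources used here. The limma test was applied to log2(FPKM + 0.1), with a variance trend, over the 12990 of 19645 features with a mean of at least 0.5 FPKM (limma 3.58.1, R 4.3.3), because FPKM are not counts. Calls needed an adjusted p under 0.05 (Benjamini-Hochberg over all tested features), with or without more than a 2-fold change. Confidence intervals use the moderated degrees of freedom. Since file coordinates start from 0, 1 was added to each start, and all 86 members matched GENCODE vM21 by symbol. Promoters came from RefSeq.

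The members and gene lists were chosen with earlier results of these data known. Named members were those past the threshold, the most abundant and the most changed of each class, and all members of classes with at most 2 tested; other tested members with values, including those named as neighbours, were chosen after their values were seen. Some genes of the lists are not reported here by name. Tables were made with pandas 2.3.3 and numpy 2.4.6 and figures with matplotlib 3.10.9 (Python 3.11.15), and the limma step was tested on simulated data. The alternatives were pseudocounts of 1 and 0.01, no filter, a minimum of 1 FPKM, 2 other scalings, a replicate block, no variance trend, sums by symbol and leaving out each library.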

Additional observations from a re-analysis of the deposited data

How the results depend on the processing

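*St3gal3* kept its direction and its adjusted p under 0.05 (limma) in all 14 refits, from 3.73e-06 to 0.0244, with log2 changes from 0.87 to 1.09, and passed 2-fold in 1 of them. *B4galnt3* stayed under 0.05 in 8 of 14, from 0.0115 to 0.129. The count of members lower in KO at an adjusted p under 0.05 was 0 with no filter, where 1.93% of all tested features were lower. It was 2 without a trend, where 3.52% of all tested features were lower. When features without a symbol were left out, an alternative chosen after seeing the data, it was 4, where 7.92% of all tested features were lower. Among calls past 2-fold, 1 member was lower without a trend and 1 when features without a symbol were left out (*Galnt3* in both), and leaving out 1 library gave 0 to 1 higher and 0 to 1 lower. The median of the members was 0.0521 without the 2 merged rows, also added after seeing the data, and 0.0188 to 0.111 when 1 library was left out. It turned negative at -0.0180 with a mean of at least 1 FPKM, -0.0112 with FPKM summed by symbol and -0.0143 without members that share coordinates with another gene, the last also added after seeing the data. Calls gained by leaving out a library were *Mgat4b* and *Galnt10* without WT replicate 1, *Galnt13*, *B4galnt2* and *B4galt2* without WT replicate 2 and *Galnt10* without KO replicate 1, and *St3gal3* passed 2-fold without KO replicate 2. A lone library of a genotype is assumed there to vary like the others. The cause of these moves was not tested.

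With the replicate number as a block, 6 members were higher and 7 lower at an adjusted p under 0.05, and 31.2% of all tested features passed in that fit (13.9% higher and 17.3% lower). Beside *St3gal3* and *B4galnt3* these were *Mgat4b*, *B4galt1*, *Gcnt2*, *B4galt3* and *Galnt2* (higher) and *B4galnt4*, *B4galt5*, *Gcnt1*, *Galnt10*, *B4galt2* and *St3gal2* (lower). The labels do not say that equal numbers were processed together, so the numbers are not taken as a pairing. The difference between replicates 1 and 2 in WT correlated with that in KO across the 12990 features with r = 0.071 and rho = 0.387. Whether libraries of equal number share an effect was not tested. The finding that only *St3gal3* and *B4galnt3* passed therefore holds for the fit without a block. With unknown depth, members near 0.5 FPKM are limited by values that change severalfold between libraries, as at *Galnt13*.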

Other observations

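Some glycosyltransferase genes of these classes are neighbours in GRCm38. *St6galnac4* and *St6galnac6*, on the plus strand of chromosome 2, are 10 bases apart, and their log2 changes were -0.01 and 0.17. *B4galt2* lies 48666 bases from *St3gal3* on the same strand of chromosome 4. It had 7.88 and 5.29 FPKM in WT and 5.87 and 4.45 in KO, with overlapping groups, a log2 change of -0.33 (standard error 0.23) and an adjusted p = 0.380 from limma, where its neighbour had 0.98. Between them *Atp6v0b* had a log2 change of 0.41 (adjusted p = 0.0581) and *Ipo13* of -0.36 (adjusted p = 0.0737); these were chosen after their values were seen, have opposite signs and did not pass the test. *Galntl5* and *Galnt11* are 1606 bases apart on chromosome 5, the former below the FPKM minimum and the latter at 11.7 to 13.9 FPKM.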
